A study of Mus musculus with 6 samples.

Results

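The genes described here are 40 listed genes of glutathione and antioxidant metabolism: glutathione transferases, the enzymes that make and recycle glutathione, peroxidases, catalase, superoxide dismutases, thioredoxin genes and the NRF2 pathway. They were chosen by name, with earlier results of these data known. Of the 40, 37 had at least 1 probe set that the platform annotation pairs with that gene alone, and 36 passed the filter on dim probe sets, out of 12994 genes that passed it in all. Slc7a11 did not pass, and Ggt1, Prdx1 and Prdx6 had no probe set paired with them alone. Transcript levels were measured on Affymetrix mouse expression arrays, 1 per sample, in small-intestinal epithelial cells of 14-day-old C57BL/6 mice, which EDTA had detached. The 3 replacement samples had the genotype Ecadflox/Ncad;Vil-Cre: a floxed E-cadherin allele, an allele carrying N-cadherin, and a Cre recombinase driven by villin regulatory sequence, which is active in the gut epithelium, so that N-cadherin stands in for E-cadherin in these cells by design. The 3 control samples came from E-cadherin-positive littermates labelled Control. Beyond this their alleles are not given in the labels, Vil-Cre included.

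Glutathione is a small thiol peptide that cells use as a reducing agent and as a tag for reactive compounds. Glutamate cysteine ligase and glutathione synthetase make it, peroxidases oxidise it while they reduce peroxides, glutathione reductase returns it to the reduced form with NADPH, and glutathione transferases join it to electrophiles such as lipid aldehydes. Thioredoxin and its reductase form a parallel reducing system. Many of these genes are induced by the transcription factor NRF2 (Nfe2l2), which KEAP1 holds in check and which binds antioxidant response elements in DNA. The intestinal epithelium meets oxidised lipids, bile and microbial products, and it expresses a peroxidase of its own, Gpx2, the gastrointestinal glutathione peroxidase.

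Promoters of members that passed the test are shown because the antioxidant response element is the DNA motif through which NRF2 acts on such genes. The windows are RefSeq's for build GRCm38.p6, 250 bases before to 50 after a start site, printed 5′ to 3′ on the strand of the gene, and capitals mark matches to the element's core, TGACNNNGC, on either strand (read as GCNNNGTCA when it lies on the other strand). Of the 5 members that passed the test 3 have a window in the table; Gsta4 and Gsr do not.
Gstm5, chr3:107895604-107895903, plus strand: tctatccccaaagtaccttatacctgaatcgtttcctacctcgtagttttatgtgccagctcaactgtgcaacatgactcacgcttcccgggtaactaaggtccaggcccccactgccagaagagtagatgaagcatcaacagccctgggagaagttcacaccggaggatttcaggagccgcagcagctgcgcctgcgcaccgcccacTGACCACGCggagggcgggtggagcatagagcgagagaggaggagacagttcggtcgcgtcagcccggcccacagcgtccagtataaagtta
Gpx2, chr12:76795505-76795804, minus strand: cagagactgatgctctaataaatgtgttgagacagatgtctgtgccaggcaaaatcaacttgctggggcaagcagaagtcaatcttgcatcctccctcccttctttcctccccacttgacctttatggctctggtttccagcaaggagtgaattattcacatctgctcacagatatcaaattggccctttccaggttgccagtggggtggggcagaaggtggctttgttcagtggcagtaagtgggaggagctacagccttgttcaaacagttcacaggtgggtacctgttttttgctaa
Cat, chr2:103485104-103485403, minus strand: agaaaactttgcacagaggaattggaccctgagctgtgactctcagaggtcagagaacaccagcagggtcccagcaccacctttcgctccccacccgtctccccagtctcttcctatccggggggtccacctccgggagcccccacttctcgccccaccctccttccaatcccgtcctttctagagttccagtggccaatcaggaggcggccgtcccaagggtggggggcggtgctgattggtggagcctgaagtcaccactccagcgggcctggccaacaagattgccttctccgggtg
The Gstm5 window holds 1 match (TGACCACGC) that begins 42 bases before the start site. These letters do not occur in the Gpx2 window or in the Cat window. 3 further members with a match, shown with 30 bases on each side where the window allows, are the glutathione synthesis subunit Gclm, thioredoxin reductase Txnrd1 (1 of its 3 windows) and the gene of NRF2 itself.
Gclm, chr3:122245393-122245461, plus strand: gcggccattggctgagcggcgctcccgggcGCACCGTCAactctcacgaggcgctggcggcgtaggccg
Txnrd1, chr10:82859084-82859152, plus strand: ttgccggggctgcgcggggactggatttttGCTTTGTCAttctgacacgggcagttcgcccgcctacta
Nfe2l2, chr2:75704865-75704913, minus strand: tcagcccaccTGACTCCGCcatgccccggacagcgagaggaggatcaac
Of the 40 members 35 had at least 1 window and 10 of these (28.6%) had a match, against 3781 of 27025 genes in the whole table (14%). By window it was 12 of 50 (24%) for the members and 4071 of 32851 (12.4%) for all, and 3 of the 12 belong to Ggt1, which has 4 windows and was not measured. Prdx1, also among the 10 members with a match, was not measured either. Gsta3, Mgst1, Srxn1 and Sod1 had a match too and are not printed. The windows of Nqo1, Gsta2, Gstm1 and Slc7a11, among others, held none. Among the 10509 tested genes with a window, 1754 (16.7%) had a match. The core also matches where an AP-1 site (TGACTCA) is followed by GC, which was the case in 149 of all windows. A match is a description of these letters and no measure of binding, and a window without one says only that these letters are not in it.

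Values are the authors' intensities, scaled to a common level, and lower ones were raised to a floor of 16, which 55.1% to 61.8% of probe sets reached per array. Control 2 and control 3 had log2 ratios with an SD of 0.115 over 5109 bright probe sets, within the 0.0812 to 0.134 that hybridization controls gave over the array pairs, while the other pairs of one group gave 0.347 to 0.564. They were averaged and counted as 1 replicate, so every test compares 2 control with 3 replacement replicates. The labels do not tie samples to separate animals, so p-values reflect only how far the 6 samples scatter, which may be technical. Genes of the X and Y chromosomes put control 1, replacement 2 and replacement 3 among females and the other arrays among males, so each sex had 1 control replicate. Their levels were uneven within a sex. Xist, of the X chromosome, read 2305 in control 1 and 440 and 578 in replacement 2 and replacement 3. Eif2s3y, of the Y chromosome, read 410 and 418 in control 2 and control 3 and 114 in replacement 1. The probe set of Cdh1, the gene of E-cadherin, read 2757, 2335 and 2204 in the control arrays and 1073, 1175 and 1357 in the replacement arrays (limma adjusted p = 0.0250), and whether it lies in the deleted part is not known here. The 2 probe sets of Cdh2, the N-cadherin gene, read at most 13.5 on any array, and whether they match the introduced copy is not known either. Epithelial markers (Epcam, Vil1, Cdx2, Krt8, Krt20 and Cdh17) were present on every array, with a summed intensity of 14351 to 15070 in the control and 17195 to 20306 in the replacement arrays. Of these 6 markers 1 rose past the threshold. Krt20 read 1882, 925 and 946 in the control arrays and 3798, 3167 and 3231 in the replacement arrays. Vil1 overlapped, at 2897.4 to 3139.5 and 2768.2 to 3258.5. The summed intensity of the red cell markers with a probe set (3 of 6 listed) was 17.7 to 52.2, and that of 6 fibroblast markers was 1087 in control 1, 162 and 171 in the other control arrays and 329 to 429 in the replacement arrays.

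Across the 36 members tested, 3 rose and 2 fell with N-cadherin replacement (limma adjusted p under 0.05). These are 8.33% and 5.56% of the members, where 4.46% and 4.66% of all 12994 genes were higher and lower (9.12% in either direction). The other 31 did not pass. At an unadjusted p under 0.05 there were 13 of the 36 members, beside 24.3% of all genes (11.4% higher and 12.9% lower). Gsta4, which joins glutathione to lipid aldehydes, rose 34.3-fold, the gastrointestinal peroxidase Gpx2 rose 6.02-fold and glutathione reductase, Gsr, rose 4.11-fold. Gstm5, a transferase of the mu class, was 2.57-fold lower, and catalase, Cat, which breaks down hydrogen peroxide in peroxisomes, was 1.95-fold lower. The median difference of the 36 members, replacement minus control, was -0.10 on the log2 scale, against -0.02 for all genes, and 16 differences were above 0 and 20 below. The probe set standing for each of the 36 genes reached the floor on all 6 arrays, so that no difference here rests on a value set to the floor. Only Gsta4 passed when control 1 was left out, where 8 and 3 of all genes were higher and lower, and no member passed when control 2 and control 3 were left out, where 3 and 1 were. In a bulk sample, fewer cells of a type and less RNA per cell cannot be told apart.

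**Figure D1:**
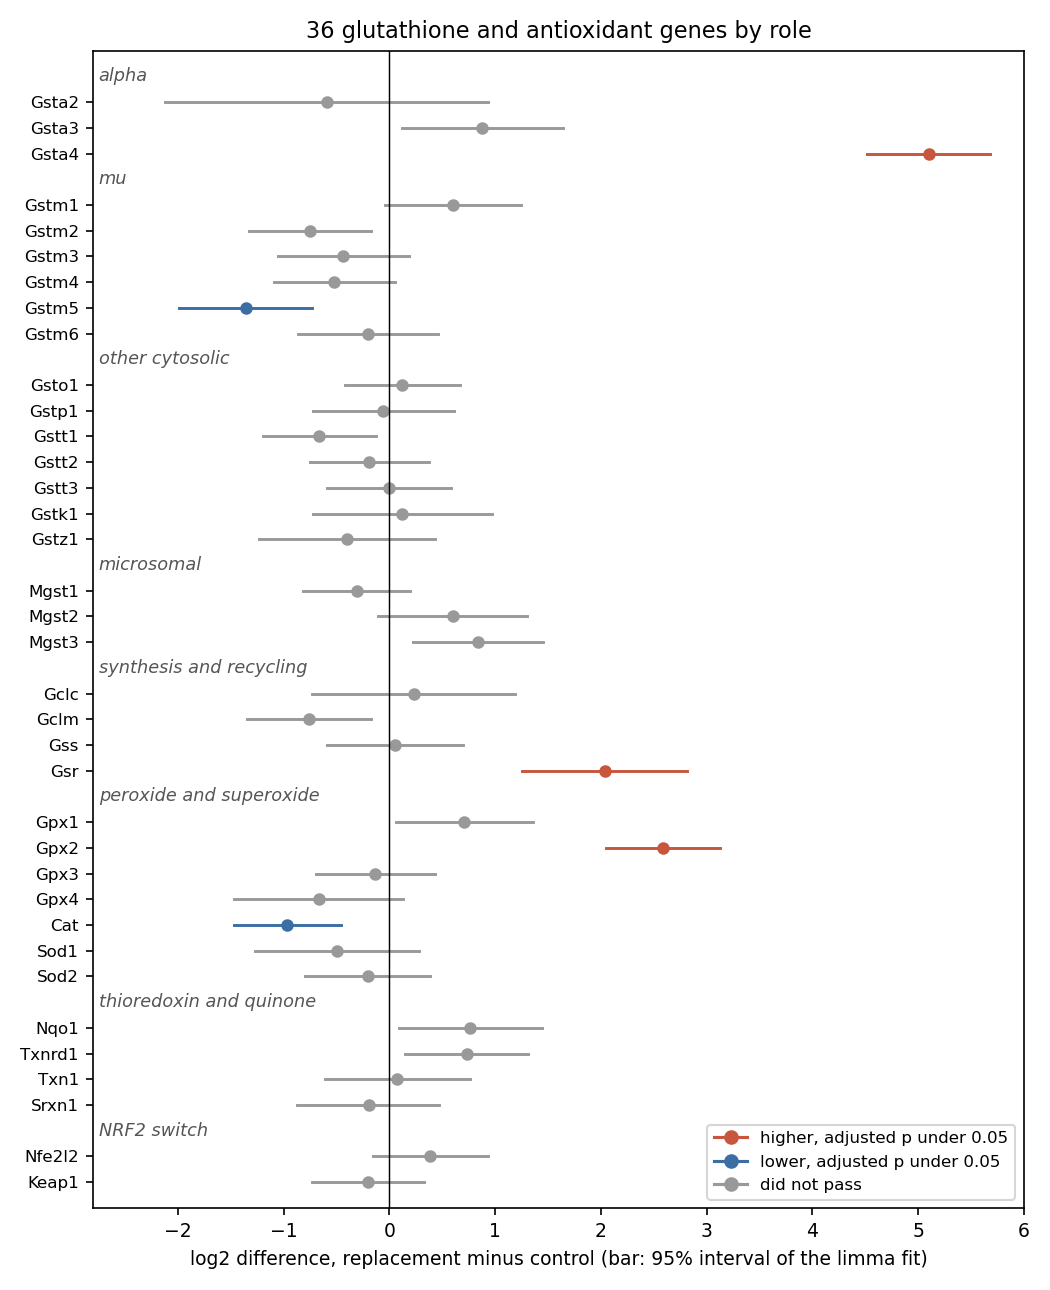
Log2 difference (replacement minus control, x axis) of the 36 measured members, grouped by role, with the 95% interval of the limma fit as bars; red and blue mark members past an adjusted p of 0.05, grey the rest. Gsta4 (5.10), Gpx2 (2.59) and Gsr (2.04) stand to the right and Gstm5 (-1.36) and Cat (-0.96) to the left, while the grey members lie between -0.76 (Gclm) and 0.88 (Gsta3).

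Among the alpha-class transferases, some of which conjugate lipid peroxidation products, 1 of 3 members rose. Gsta4 read 51.7, 41.3 and 43.8 on the control arrays against 2025, 1460 and 1406 on the replacement arrays. The lowest replacement array was far above the highest control array, and the log2 difference was 5.10 (SE 0.259, n = 2 and 3, limma adjusted p = 1.73e-05). Within the females it was 4.79 and within the males 5.57. Gsta4 is read by 1 probe set, of a type with no suffix for shared transcripts. Gsta3 read 98.1, 168 and 188 in the control arrays and 248, 325 and 178 in the replacement arrays, with overlapping groups (log2 difference 0.88, SE 0.338, adjusted p = 0.143). Among the members, control 1 departed most from the other control arrays in Gsta2: it read 104, they read 840 and 735, and the replacement arrays, at 131, 221 and 234, lay between them. Its difference was 1.13 within the females and -2.58 within the males, and the pooled value of -0.59 (SE 0.680, adjusted p = 0.656) describes neither. The probe set of Gsta2 has the suffix a, which marks a set that reads several transcripts.

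The mu-class genes Gstm1 to Gstm6 encode cytosolic transferases and, with Gstm7, follow one another on the chromosome. Of the 6 members 1 fell and 5 did not pass. Gstm5 read 743, 647 and 610 on the control arrays against 365, 234 and 221 on the replacement arrays. All replacement arrays lay below all control arrays (log2 difference -1.36, SE 0.281, adjusted p = 0.0174), by -1.71 within the females and -0.78 within the males. Gstm2 read 205, 253 and 269 against 163, 140 and 113, also without overlap, and missed the threshold (-0.75, SE 0.258, adjusted p = 0.107). Gstm4 (-0.52, adjusted p = 0.245), Gstm3 (-0.44, adjusted p = 0.378) and Gstm6 (-0.20, 95% interval -0.863 to 0.459) had values below 0 and did not pass. Gstm1, next to Gstm2 and Gstm4 in the annotation's gene order, had a value above 0 in all 4 of its probe sets, from 0.60 to 0.93, and the one standing for the gene read 140, 139 and 147 against 268, 242 and 152 (adjusted p = 0.238). Sequences of this family are alike, and the probe sets of Gstm1 and Gstm3 that stand for their genes have suffixes that mark possible cross-hybridization or shared transcripts (x and s), so their values are uncertain as to the gene. Gstm5 missed the threshold when control 1 was left out (-1.24, adjusted p = 0.249), when control 2 and control 3 were (-1.48, 0.205), when replacement 2 was (-1.27, 0.0727) and when replacement 3 was (-1.22, 0.0936).

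None of the 7 other cytosolic transferases passed by limma, and 1 had an unadjusted p under 0.05 (24.3% of all genes did). That was Gstt1, a theta-class enzyme, with 96.4, 90.6 and 103 in the control arrays against 61.6, 52.5 and 70.1 in the replacement arrays, which do not overlap (log2 difference -0.66, SE 0.238, adjusted p = 0.122). Gstt3, next to it on the chromosome, had -0.0042 (95% interval -0.592 to 0.584), and Gstt2, beyond Gstt4, had -0.19 (adjusted p = 0.704). Gsto1 and Gstp1, bright on all arrays, had 0.12 (95% interval -0.423 to 0.664) and -0.06 (-0.723 to 0.607). Gstz1, which acts in tyrosine breakdown, had -0.40 (SE 0.371), and its lowest array was replacement 3 at 60.9. The mitochondrial and peroxisomal Gstk1 read 530 in replacement 1 against 213 and 242 in the other replacement arrays, and 245 to 308 in the control arrays, so that its value of 0.12 (SE 0.377) has an interval from -0.726 to 0.966.

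Of the 3 microsomal transferases, membrane enzymes of which some also reduce lipid peroxides, none passed by limma. Only 1 of them, Mgst3, had an unadjusted p under 0.05 (24.3% of all genes did). It read 1408, 1212 and 1263 in the control arrays and 3073, 1840 and 2327 in the replacement arrays, without overlap (log2 difference 0.84, SE 0.273, adjusted p = 0.0924), and its dimmer probe set gave 0.75. Mgst3 passed with the control arrays as 3 replicates (0.87, adjusted p = 0.0255). That fit counts control 2 and control 3 separately, though they differed by no more than array noise, so it is no support for Mgst3. Over all genes it gave 1118 higher and 1234 lower, where the main fit gave 580 and 605. Mgst2 read 614, 896 and 910 against 1418, 790 and 1280, and replacement 2 lay inside the control range (0.60, SE 0.314, adjusted p = 0.282). Mgst1 had -0.31 (95% interval -0.814 to 0.198), with 2858 to 2998 in the control and 2252 to 2547 in the replacement arrays.

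**Figure D2:**
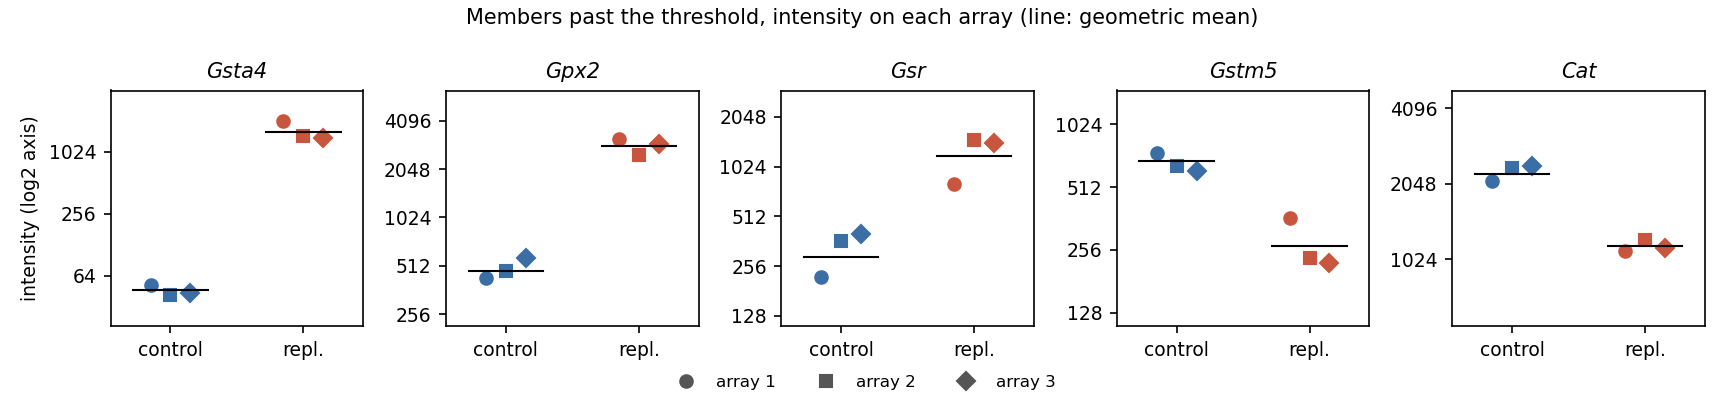
Intensity on each array (y axis, log2 scale) of the 5 members that passed the test, control arrays in blue and replacement arrays in red, with the geometric mean of the replicates as a line. In each panel the groups do not overlap; Gsr was lowest in array 1 of each group.

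Glutathione synthesis and recycling had 4 measured members, of which 1 rose. Gsr, which regenerates reduced glutathione, read 221, 364 and 402 in the control arrays and 801, 1481 and 1434 in the replacement arrays. Control 1 and replacement 1 were the lowest arrays of their groups, and the groups did not overlap (log2 difference 2.04, SE 0.347, adjusted p = 0.00717). The size differed between the sexes, at 2.72 within the females and 1.07 within the males, a difference that was not tested. A dimmer probe set of Gsr gave 1.65. Gsr missed the threshold when control 1 was left out (1.64, adjusted p = 0.215), when control 2 and control 3 were (2.44, 0.141) and when replacement 3 was (1.91, 0.0624).

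The subunits of glutamate cysteine ligase, which makes the first and rate-limiting step of synthesis, did not pass. Gclm, the modifier subunit, read 723, 1014 and 1048 in the control arrays and 496, 598 and 448 in the replacement arrays, without overlap (log2 difference -0.76, SE 0.261, adjusted p = 0.109), and its dimmer probe set gave -0.74. With the control arrays as 3 replicates Gclm passed (-0.84, adjusted p = 0.0257). That fit counts separately the control arrays that the main fit averaged, so it is no support for Gclm. Gclc, the catalytic subunit, split within both groups: 240 in control 1 against 635 and 590, and 289 in replacement 1 against 557 and 565. Both its probe sets showed this pattern, and their differences were 0.23 (SE 0.428, adjusted p = 0.804) and 0.25. Gss, glutathione synthetase, had 768 in control 1 against 1398 and 1316, and 966 to 1114 in the replacement arrays (0.05, 95% interval -0.586 to 0.692). Slc7a11, which imports the cystine from which glutathione is built, reached an intensity of at most 21.2 and was tested in no fit that used the filter.

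Peroxide removal had members past the threshold in both directions. Gpx2, which reduces hydrogen peroxide and lipid peroxides in the gut epithelium, read 429, 477 and 573 in the control arrays and 3161, 2516 and 2917 in the replacement arrays. The replacement arrays were close to each other and all far above the control arrays (log2 difference 2.59, SE 0.240, adjusted p = 4.06e-04), by 2.66 within the females and 2.59 within the males. Its adjusted p was 0.0667 without control 1 and 0.0762 without control 2 and control 3, at differences of 2.45 and 2.73. Cat read 2110, 2378 and 2417 in the control arrays and 1104, 1220 and 1138 in the replacement arrays. Its groups were narrow and did not overlap (-0.96, SE 0.227, adjusted p = 0.0294), with -0.84 within the females and -1.12 within the males, and its other probe set gave -0.73 (adjusted p = 0.110 with each probe set as a feature). Cat missed it too when control 1 was left out (-1.06, adjusted p = 0.149), when control 2 and control 3 were (-0.87, 0.200), when replacement 2 was (-1.005, 0.0773) and when replacement 3 was (-0.95, 0.107).

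Gpx1, the cytosolic peroxidase found in most cells, read 1081, 1551 and 1648 against 2745, 1707 and 2116, and did not pass although its arrays do not overlap (0.71, SE 0.289, adjusted p = 0.165). Gpx3, the secreted form, was bright in both groups, at 3121 to 3672 and 2836 to 3944 (-0.13, 95% interval -0.693 to 0.428). Gpx4, which reduces lipid peroxides in membranes, had 1960, 2109 and 2215 in the control arrays and 2056, 821 and 1282 in the replacement arrays, so that replacement 1 lay inside the control range and the others below it (-0.67, SE 0.356, adjusted p = 0.289). Its other probe set, which may cross-hybridize, gave -1.13. Sod1, the cytosolic superoxide dismutase, read 2667, 1111 and 1766 in the replacement arrays against 2418 to 2534 in the control arrays, so that replacement 1 lay above the control range and the others below it (-0.50, SE 0.346, adjusted p = 0.429). Sod2, the mitochondrial form, had -0.21 (95% interval -0.796 to 0.383). The ratio of the 3′ to the 5′ probe set of actin, a measure of RNA integrity, was 1.1 in replacement 2, 1.24 and 1.2 in the other replacement arrays and 1.3 to 1.35 in the control arrays. The same ratio for Gapdh overlapped between the groups, at 0.651, 0.774 and 0.737 in the control arrays and 0.715, 0.689 and 0.66 in the replacement arrays. The part of RNA integrity in these values was not tested.

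The thioredoxin and quinone genes had 4 measured members, none of which passed by limma, and 2 had an unadjusted p under 0.05, beside 24.3% of all genes. Txnrd1, thioredoxin reductase, read 721, 978 and 955 in the control arrays and 1163, 1414 and 1617 in the replacement arrays. These do not overlap, and the difference was 0.73 (SE 0.259, adjusted p = 0.118). A dimmer probe set read 42.6, 28.1 and 37.7 against 78.2, 173 and 190, a difference of 1.88 (adjusted p = 0.0314 with every probe set as its own feature). The dimmest read 7.7, 3.5 and 13.4 against 48, 46 and 70.6; it met the filter only through the replacement arrays, so its difference is no support for Txnrd1. Nqo1, a quinone reductase and a widely used NRF2 target, read 118, 223 and 234 against 272, 302 and 266. Control 1 was the lowest array and the groups did not overlap (0.77, SE 0.301, adjusted p = 0.151), with 1.26 within the females and 0.25 within the males. Srxn1, sulfiredoxin, which repairs overoxidised peroxiredoxins, read 556 in control 1, 1072 and 1073 in the other control arrays and 651 to 716 in the replacement arrays, and its 4 probe sets had both signs, from -0.24 to 0.60. Txn1, thioredoxin itself, was bright in both groups, at 3757 to 4115 and 2744 to 5253 (0.08, 95% interval -0.608 to 0.760).

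The regulators themselves did not pass. Nfe2l2 had 1015, 740 and 749 in the control arrays and 1135, 1191 and 1090 in the replacement arrays, just without overlap (0.39, 95% interval -0.155 to 0.931, adjusted p = 0.371), and a far dimmer probe set gave -0.91. Keap1 had -0.21 (95% interval -0.736 to 0.323, adjusted p = 0.655), and 0.42 in its dimmer probe set. Transcript levels of either gene say nothing of the amount or place of the protein.

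**Figure D3:**
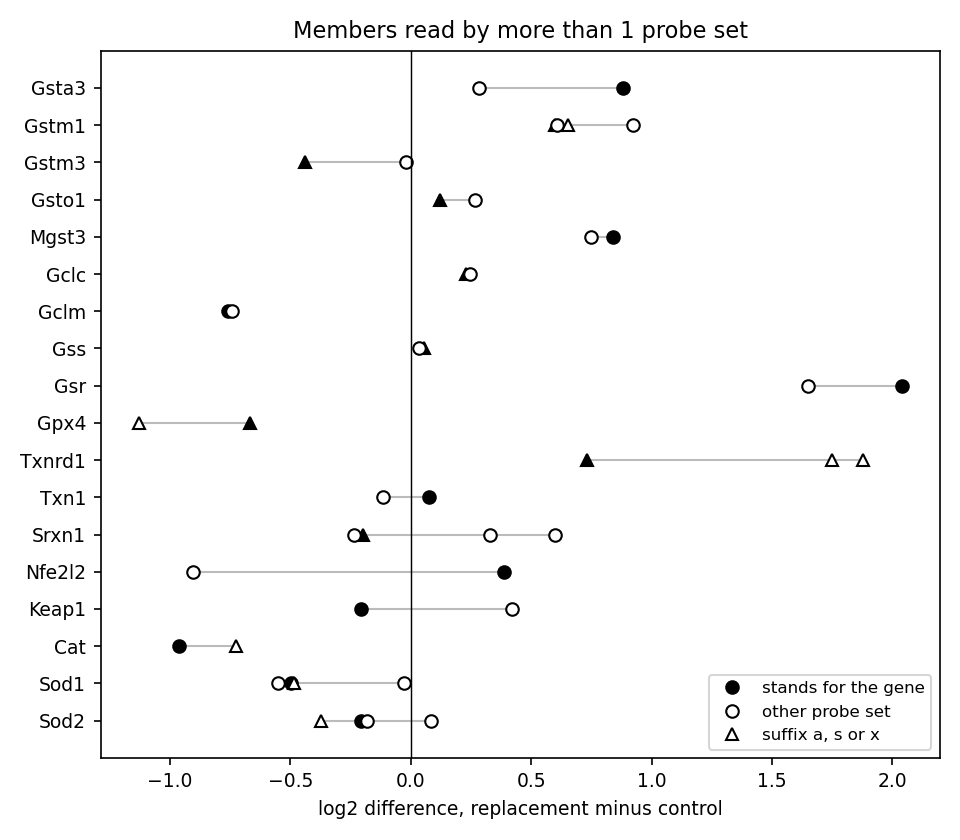
Log2 difference (x axis) of every kept probe set of the 18 members read by more than 1, with the probe set that stands for the gene filled, the others open, and triangles for names with the suffix a, s or x. In 5 members (Txn1, Srxn1, Nfe2l2, Keap1 and Sod2) the probe sets lie on both sides of 0; those of Gsr and Cat, which passed, do not.

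In 16 members control and replacement arrays were fully separate, of which 9 (25%) were higher and 7 (19.4%) lower in the replacement arrays. Over all genes tested the shares were 17.8% and 18.8%. The members without overlap that did not pass were Gstm1, Mgst3, Gpx1, Nqo1, Txnrd1 and Nfe2l2 above, and Gstm2, Gstm4, Gstt1, Mgst1 and Gclm below. For 14 of the 31 members that did not pass the 95% interval lay within 1 log2 unit on both sides of 0, and for the other 17 it reached beyond.

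**Figure D4:**
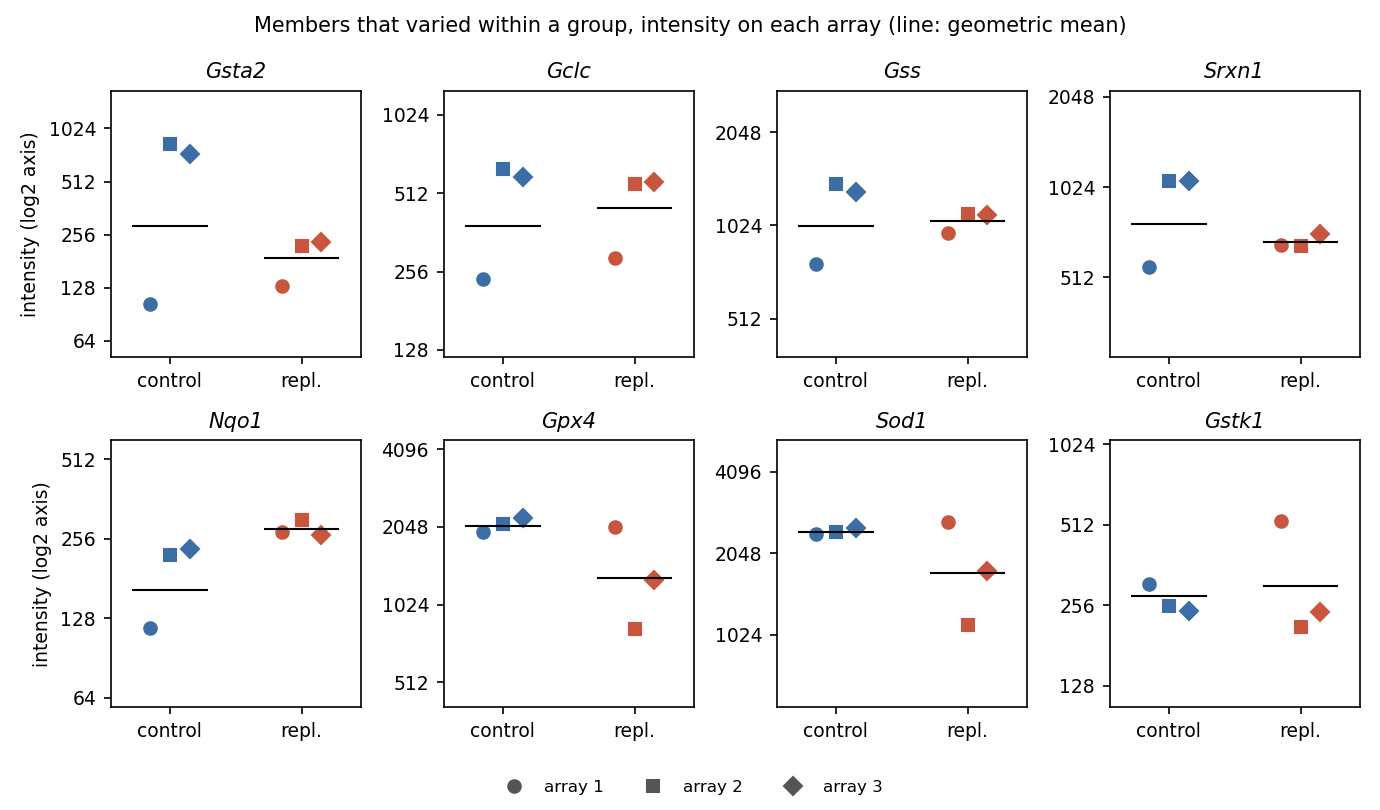
Intensity on each array (y axis, log2 scale) of 8 members, chosen after their values were seen, whose arrays spread within a group; control in blue, replacement in red, line for the geometric mean of the replicates. Gsta2, Gclc, Gss, Srxn1 and Nqo1 were lowest in control 1, Gpx4 and Sod1 were lowest in replacement 2, and Gstk1 was highest in replacement 1.

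Control 1 differed from the mean of control 2 and control 3 by -2.92 in Gsta2, -1.35 in Gclc, -0.95 in Srxn1 and in Nqo1, -0.85 in Gsta3, -0.82 in Gss and -0.79 in Gsr on the log2 scale. This array was also the only control placed among females and the one with the highest fibroblast marker sum, and the part of these in the differences was not tested. With sex as a term of the fit the same 3 members were higher and the same 2 lower. Each of the 5 had one sign within both sexes, which had to follow because their control and replacement arrays do not overlap.

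Related genes outside the members were taken from 4 further lists. These lists were chosen with earlier results of these data known, so their shares are no independent support. In the list of other NRF2 targets and partners 6 of 30 measured genes rose (20%) and 2 fell (6.67%), beside 4.46% and 4.66% of all genes, and the list's median difference was 0.14. Akr1b8, an aldo-keto reductase, read 55.6, 95.3 and 102 in the control arrays and 950, 869 and 698 in the replacement arrays, 11.2-fold higher (log2 difference 3.49, SE 0.297, adjusted p = 2.71e-04). Ptgr1, which reduces prostaglandins and lipid aldehydes, rose 5.47-fold, the exporter Abcc3 5.10-fold and pirin, Pir, 2.65-fold. The remaining genes that rose, Pgd and Me1, both sources of NADPH and named here after their values were seen, had 1.47 and 1.25. The probe set of Pgd has the suffix x and may cross-hybridize. The genes that fell were Osgin1 (-1.31, SE 0.279) and Mafg (-1.14, SE 0.265), a partner of NRF2 on DNA. No gene of this list passed without control 1 or without control 2 and control 3.

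In the list of glutathione handling 3 of 26 measured genes rose (11.5%) and 5 fell (19.2%), beside 4.46% and 4.66% of all genes. The list's median was -0.26. The exporters Abcc4, at least 5.22-fold with 1 control array under the floor, and Abcc1, 4.25-fold, and the dipeptidase Dpep1, 4.81-fold, rose. Hpgds, a prostaglandin synthase of the transferase family, fell by 1.46 on the log2 scale and Ggct, which cleaves gamma-glutamyl peptides, by 1.44. Gpx7 was at least 2.05-fold lower, with 1 replacement array under the floor, and the peptidase Anpep, also an enterocyte marker, 2.24-fold. Abcc2, an exporter of glutathione conjugates at the apical membrane, was 2.29-fold lower, and it is named after its values were seen. In the list of other thioredoxin and peroxide genes 2 of 25 fell (8%), beside 4.66% of all genes, and the median was -0.31. Those that fell were Selenow (-1.81, SE 0.302) and Sesn2 (-0.96, SE 0.255). At an unadjusted p under 0.05 by limma 6 of the 25 were lower and 0 higher, beside 12.9% and 11.4% of all genes. At that threshold 9 of the 26 genes of glutathione handling were lower and 3 higher. Of the 30 NRF2 targets and partners 5 were lower and 8 higher. The probe set of Selenow may cross-hybridize. In the list of sulphur amino acid and cysteine supply 2 of 19 rose (10.5%), beside 4.46% of all genes, and the median was 0.03. Those that rose were Slc1a4, at least 2.16-fold with 1 control array under the floor, and Shmt2, 2.04-fold. This list had 3 genes in each direction at an unadjusted p under 0.05, beside 11.4% higher and 12.9% lower over all genes. The probe set of Shmt2 may cross-hybridize, and with probe sets without a suffix 1 gene of this list rose.

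Markers of epithelial and other cell types were summed on each array, and most single markers did not pass the test. The summed intensity of 5 proliferation markers was 2337 to 2651 in the control and 3577 to 4373 in the replacement arrays, without overlap, and 1 of the 5 rose. The 4 Paneth markers with a probe set summed to 6737 in control 1 and to 2648 to 4188 on the other arrays, with overlapping groups, and 1 of them rose. The 7 enterocyte markers with a probe set summed to 25372 to 27087 and 18869 to 26992, which overlap, and 1 of them, Anpep, fell. The 6 enteroendocrine markers summed to 2343 to 3017 and 994 to 1902, and 2 of them fell. The leukocyte list, with 8 of 9 markers on the array, summed to 2590 to 2665 and 858 to 1464, nearly all from Csf1r, and 1 of the 6 tested fell. Its defining marker Ptprc read at most 56.4 and Cd3e and Cd3g stayed under the floor. The part of these cell types in the differences of the members was not tested.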

How the data were processed

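RNA of 6 samples was hybridized to 1 array each. The authors deposited linear intensities of 45101 probe sets; with 2% cut from either end, each array had a mean of 100. The submitters' processing notes name GCRMA and limma, with no role or version. The step from probes to probe sets was not stated. Intensities under 16 were set to 16 before log2, which shrinks differences of dim genes. Probe sets with at least 3 of 6 arrays at 16 or more were kept (26664). Those with 1 gene symbol in the platform annotation were used, with symbols updated by Entrez identifier from a gene table of GRCm38.p6 (34741 of 34945 matched). The probe set with the highest mean log2 value stood for its gene.

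All 12994 genes were fitted with lmFit and eBayes of limma 3.58.1 (R 4.3.3), Benjamini-Hochberg adjustment and a threshold of 0.05. Control was subtracted from replacement, and the SE is the moderated one. The number of arrays limits the precision. The steps were tested on simulated data. Same-numbered arrays of the groups had correlations of -0.0757, -0.00189 and -0.0813 in their deviations from the group means.

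The members and lists were chosen with earlier results of these data known. All 40 members are named. Of each further list up to 4 genes past the threshold in each direction are named, by smallest p, and others as stated. Alternatives were the replicate unit, a replicate block, floor, filter, normalization, choice of probe set, variance options, sex as a term, a test against 1.5-fold, and leaving out arrays. Figures were drawn with matplotlib 3.10.9.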

Additional observations from a re-analysis of the deposited data

Results flagged for a closer look

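In 10 members the replacement arrays of one sex lay on one side of their control arrays and those of the other sex on the opposite side. The share of all genes with this pattern was not counted, so whether these 10 are more than that share is not known. With 1 control replicate in each sex the difference was not tested, and sex and replicate cannot be told apart. In 5 of these the log2 difference was above 0 within the females: Gsta2 had 1.13 there and -2.58 within the males, Gclc 1.22 and -1.08, Gss 0.53 and -0.49, Srxn1 0.3 and -0.71, and Gstt2 0.04 and -0.38. In the other 5 it was below 0 within the females: Sod1 had -0.79 there and 0.1 within the males, Gstk1 -0.44 and 1.08, Gpx3 -0.33 and 0.22, Sod2 -0.31 and 0.08, and Gstp1 -0.19 and 0.32.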

How the results depend on the processing

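The 5 members that passed kept their direction in all 20 alternatives to each. Gsta4 stayed past the threshold in 19 (adjusted p 2.39e-07 to 0.0572), Gpx2 in 18 (1.52e-05 to 0.0762), Gsr in 15 (5.36e-04 to 0.215), Cat in 14 (0.00464 to 0.735) and Gstm5 in 13 (0.00422 to 0.249). Without control 1, or without control 2 and control 3, the control group is 1 replicate, assumed to vary like the replacement group. The cause of these changes was not tested. Leaving out arrays, members higher ranged from 0 to 3 and lower from 0 to 2, glutathione handling from 0 to 3 and 0 to 7, thioredoxin and peroxide lower from 0 to 5, NRF2 targets from 0 to 6 and 0 to 3, and sulphur amino acid supply from 0 to 2 and 0 to 1. The other alternatives that moved a count by over 1.5 times were these. With all 6 arrays as replicates the counts lower were 5 members, 8 of glutathione handling, 4 of thioredoxin and peroxide, 4 NRF2 targets and 3 of sulphur supply. With the replicate block on those 6 arrays they were 4, 5 and 3 for members, thioredoxin and peroxide, and sulphur supply; labels do not say that the numbers pair the samples, and over all genes the block gave 994 higher and 1108 lower, where these arrays without it gave 1118 and 1234. A floor of 8 gave 3 lower in glutathione handling, 1 lower in thioredoxin and peroxide and 1 higher in sulphur supply. A floor of 32 gave 1 member lower, 0 higher and 1 lower in glutathione handling, 0 lower in thioredoxin and peroxide, 2 higher and 0 lower among NRF2 targets and 0 higher in sulphur supply. With no filter, which adds dim probe sets to the fit, 2 members were higher and 0 lower, and every list had 0 in both directions. A filter at 64 gave 4 lower in thioredoxin and peroxide and 1 higher and 2 lower in sulphur supply. Scaling to medians gave 3 lower in glutathione handling and 1 in thioredoxin and peroxide. The mean of probe sets gave 1 lower in thioredoxin and peroxide and 1 higher in sulphur supply, and probe sets without a suffix gave 2 lower in glutathione handling and 1 higher in sulphur supply. Trend and robust options gave 1 lower in sulphur supply. The test against 1.5-fold gave 3 members higher and 0 lower, 0 lower in glutathione handling, thioredoxin and peroxide and NRF2 targets, 3 higher in NRF2 targets and 0 higher in sulphur supply. Over all genes the main fit gave 580 higher and 605 lower. A floor of 8 gave 483 and 460, a floor of 32 gave 143 and 148, and no filter gave 70 and 92 of 18193 genes. A filter at 64 gave 650 and 655 of 8375 genes, scaling to medians 482 and 516, and the mean of probe sets 556 and 573. Probe sets without a suffix gave 452 and 476 of 11352 genes, trend and robust options 704 and 706, and the test against 1.5-fold 169 and 127.

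Of the 31 members that did not pass, 13 changed sign somewhere, in 24 of 612 values. Leaving out arrays gave ranges of -2.05 to 0.87 for Gsta2, -0.39 to 0.04 for Gstm6, -0.008 to 0.19 for Gsto1, -0.31 to 0.15 for Gstp1, -0.46 to 0.076 for Gstt2, -0.19 to 0.18 for Gstt3, -0.29 to 0.37 for Gstk1, -0.45 to 0.91 for Gclc, -0.36 to 0.46 for Gss, -0.11 to 0.36 for Txn1 and -0.67 to 0.28 for Srxn1. Sex as a term gave 0.028 for Gstp1 and 0.021 for Gstt3. All 6 arrays as replicates gave -0.084 for Gss, also with the block. The mean of probe sets gave -0.02 for Txn1, 0.124 for Srxn1, -0.259 for Nfe2l2 and 0.107 for Keap1, and probe sets without a suffix gave 0.328 for Srxn1. In 9 values of 5 members the threshold was passed: Gstm2, Gstt1, Mgst3 and Gclm with all 6 arrays, 3 of them also with the block, Mgst3 with trend and robust options, and Txnrd1 as the mean of its probe sets, of which 1 met the filter only through the replacement arrays, so this is no support for Txnrd1. The fits on all 6 arrays count control 2 and control 3 separately, so they are no support for Gstm2, Gstt1, Mgst3 or Gclm.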
